A study of Mus musculus with 6 samples.

Results

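Spp1, which encodes osteopontin, and 9 genes encoding chains of its cell-surface receptors (Cd44, Itgav, Itgb1, Itgb3, Itgb5, Itga4, Itga5, Itga8 and Itga9) were followed in N18-Fms mouse prostate tumor cells with and without stimulation by CSF-1. They were taken by gene name from the annotation of the arrays, which gave 17 probes for the 10 genes, out of 55378 usable probes for 36028 genes. N18 is a single subclone of C2H, a clonal line from a prostate tumor of the TRAMP mouse, and was made to express the murine CSF-1 receptor (CSF-1R or Fms) by retroviral infection followed by sorting for the receptor on the cell surface. Expression was measured on 6 single-color Agilent arrays, 2 of Control cells left unstimulated (vehicle per the labels), 2 of cells after 24 h and 2 of cells after 48 h of recombinant mouse CSF-1 at 100 ng/mL. All cells, Control included, carried the introduced receptor and grew with serum and dihydrotestosterone, and the parental cells were described as secreting CSF-1 of their own. The RNA came from 2 independent experiments, and the labelled times are used although the methods give shorter ones.

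Osteopontin is a secreted phosphoprotein of bone matrix, macrophages and many tumors that carries an RGD motif for cell attachment. Through this motif it binds integrins, which are pairs of an α and a β chain, among them αvβ3, αvβ5, αvβ1, α5β1 and α8β1, whereas α9β1 and α4β1 bind the stretch next to it. CD44, the main receptor of hyaluronan, is a further receptor described for osteopontin and exists in forms that differ by alternatively spliced exons.

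The 60-base probes that carry the main results are given 5′ to 3′, as deposited with the arrays. The Spp1 probe is shown because every osteopontin value rests on it. It lies at chr5:104868502-104868561 on the plus strand of mm9, from base 524 of the transcript. Its capitals mark the codons for the glycine and aspartate of the RGD motif and for the residues that follow, so it reads the receptor-binding part of the coding sequence. The Cd44 probes at chr2:102672645-102672704 and chr2:102677971-102678030 on the minus strand of mm9 are shown because they were the Cd44 probes with the largest differences at 24 h.
Spp1 probe A_55_P2085142: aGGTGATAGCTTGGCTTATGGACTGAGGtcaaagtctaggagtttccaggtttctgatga
Cd44 probe A_55_P2166486: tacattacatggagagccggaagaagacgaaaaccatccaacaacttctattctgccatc
Cd44 probe A_55_P2166488: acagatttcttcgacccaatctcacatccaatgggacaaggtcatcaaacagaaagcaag

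Between 58.7% and 72.0% of the 59305 non-control spots of an array were well above background, and the 2 arrays of a group correlated at 0.9944 to 0.9954 across 29330 probes, which are not independent. The first 24 h array had the highest share well above background and was the only one on a second slide. The 3 Csf1r probes were well above background on all 6 arrays and differed from Control by at most 0.32 on the log2 scale, with 0 called at either time. Of the epithelial markers, the keratins Krt8, Krt5 and Krt14 were well above background on all 6 arrays, Cdh1 on none and Epcam on 1, whereas all 8 mesenchymal markers were well above background on all 6. Values are log2 signals relative to the 75th percentile of each array (0 is the level of that percentile), and a probe was called where the adjusted p (limma, Benjamini-Hochberg over 34807 probes) was under 0.05. With 2 arrays a group, lack of overlap is common. Among these probes, 59.2% did not overlap with Control at 24 h, in either direction, and 58.1% at 48 h. Between 24 h and 48 h the share was 47.7%. In bulk RNA, a change in the number of cells that express a gene and a change per cell cannot be told apart.

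Spp1 was the member with the clearest change, and it rose at both times. Its probe read 2.55 and 3.36 on the Control arrays. It read 6.24 and 6.52 after 24 h of CSF-1, and 5.79 and 6.05 after 48 h. Each stimulated array was thus far above both Control arrays, and the gap was wider than the spread within any group. The increase was 10.8-fold at 24 h (log2 difference 3.43, SE 0.29, 95% interval 2.69 to 4.16, adjusted p = 0.00501). At 48 h it was 7.82-fold (log2 difference 2.97, 95% interval 2.23 to 3.70, adjusted p = 0.00668). Among the 34807 tested probes, 181 had a larger increase at 24 h and 312 at 48 h.

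**Figure D1:**
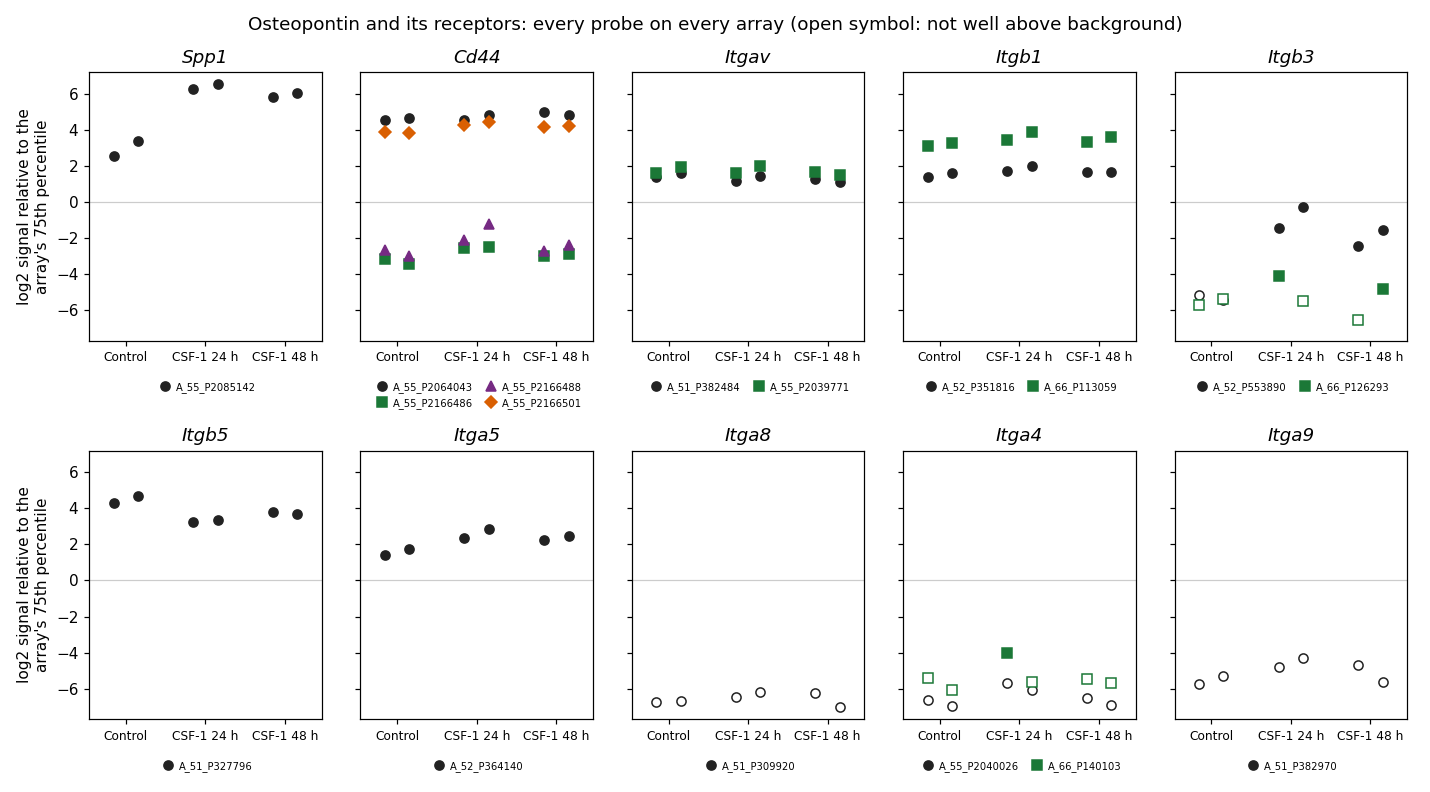
Log2 signal relative to the array's 75th percentile (vertical axis) for every probe of the 10 genes on each of the 6 arrays, grouped as Control, CSF-1 24 h and CSF-1 48 h; symbols stand for probes, and open symbols were not well above background. Spp1 moved from between 2.55 and 3.36 to between 5.79 and 6.52, and Itga8 and Itga9 have open symbols only; heights of different probes are not comparable.

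From 24 h to 48 h, Spp1 differed by -0.46 (95% interval -1.20 to 0.28, adjusted p = 0.543). The 48 h arrays were both below the 24 h arrays, but the interval covers a fall as well as a small rise. The Control arrays were the most variable, with an SD of 0.57 (n = 2) against 0.20 at 24 h and 0.18 at 48 h. Leaving out any single array kept the increase between 3.02 and 3.83 at 24 h and between 2.56 and 3.37 at 48 h, with the adjusted p at or below 0.0434.

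Of the 17 member probes, 12 were tested, since no group had the other 5 well above background on each of its arrays. Itgb3 passed through the stimulated groups alone, so its presence among the tested probes is tied to its difference. At 24 h, 4 rose and 1 fell, and of all tested probes 12.7% were called (7.61% higher and 5.07% lower). The risers were Spp1, Itgb3, Itga5 and 1 of 4 Cd44 probes, and Itgb5 fell. At 48 h, 2 rose (Spp1 and Itgb3) and 1 fell (Itgb5), and of all tested probes 11.6% were called (5.62% higher and 6.01% lower). As a description, the median difference of the tested member probes was 0.48 at 24 h and 0.29 at 48 h, beside 0.05 and -0.05 over all tested probes. Between 24 h and 48 h, 0 member probes were called by limma, and 0% of all tested probes. At an unadjusted p under 0.05, 13.6% of all probes differed between the times, among them the Cd44 probes A_55_P2166486 and A_55_P2166488 and the Itgb5 probe. Both comparisons with Control use the same Control arrays and are not independent. At an unadjusted p under 0.05 and 2-fold, 4 member probes rose and 1 fell at 24 h (7.83% of all tested probes, 5.98% higher and 1.85% lower). At 48 h, 2 rose and 0 fell (6.25%, 4.46% higher and 1.79% lower). Between the times, this rule passed 2.46% of all tested probes, 0.825% higher and 1.64% lower at 48 h. It passed 0 member probes.

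**Figure D2:**
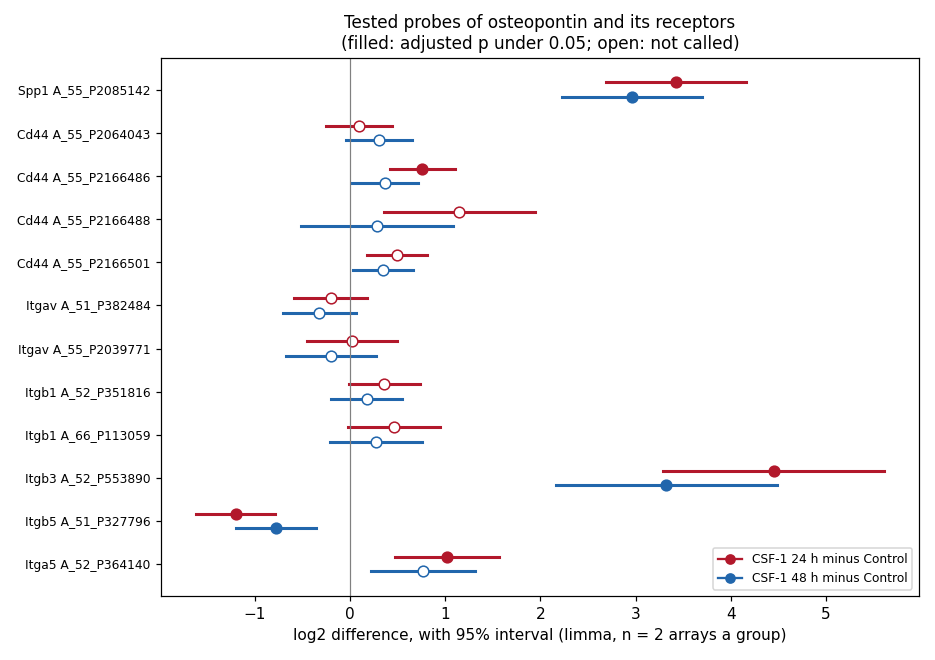
Log2 difference from Control (horizontal axis) of each of the 12 tested member probes at 24 h (red) and 48 h (blue), with 95% intervals from limma; filled points were called at an adjusted p under 0.05. Spp1 and Itgb3 lie to the right of all others, Itgb5 alone is filled on the negative side, and the Itgav intervals include 0 at both times.

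The integrin chain with the largest increase was Itgb3, the β3 chain that pairs with αv to form the vitronectin receptor of osteoclasts. Probe A_52_P553890 (chr11:104531672-104531731 on mm9) read -5.16 and -5.47 on the Control arrays, neither well above background. It read -1.43 and -0.30 at 24 h and -2.44 and -1.55 at 48 h, all well above background. The stimulated arrays were all above both Control arrays, and the 24 h arrays above the 48 h arrays. Control was dim, so the fold was taken against the lowest signal well above background on each Control array. Against that level, Itgb3 was 14.5-fold higher at 24 h and 6.64-fold higher at 48 h on the signals used here. Signals not well above background can exceed that level, so these folds are not strict lower limits. The adjusted p (limma, 0.00777 and 0.0161) belong to the fitted differences, which use the dim Control values, and not to these folds. The 48 h value differed from that at 24 h by -1.13 (95% interval -2.29 to 0.03, adjusted p = 0.379).

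The fitted Itgb3 difference, 4.45 at 24 h and 3.32 at 48 h, depended on how background was handled, and became 2.30 and 1.42 with normexp correction of the raw intensities. That correction adds an offset of 50, whereas the Control signals used here were 15.4 and 13.8 before the log2 step. The folds above hold only for the signals without it. The call was lost at 24 h without the second Control array (adjusted p = 0.0544) and at 48 h without the first Control, the second Control or the second 48 h array (adjusted p = 0.0801, 0.0877 and 0.0686). At 48 h it was also lost with the mean of both Itgb3 probes, where the difference was 1.60 (adjusted p = 0.066), and without a filter on dim probes (adjusted p = 0.0715). A second Itgb3 probe, A_66_P126293, read -5.74 and -5.37 in Control, -4.08 and -5.52 at 24 h and -6.53 and -4.82 at 48 h. It was well above background on 1 array of each stimulated group and was not tested, so its groups overlapped and it gave no measured change.

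Itgb5, whose β5 chain also pairs with αv and binds vitronectin and osteopontin, moved the other way. Its probe A_51_P327796 (chr16:33949123-33949182 on mm9) read 4.31 and 4.71 in Control, 3.26 and 3.35 at 24 h, and 3.78 and 3.67 at 48 h. All stimulated arrays were below both Control arrays, and the 24 h arrays were the lowest. It fell by 1.20 on the log2 scale at 24 h (2.31-fold lower, 95% interval -1.62 to -0.79, adjusted p = 0.0143) and by 0.78 at 48 h (1.72-fold lower, 95% interval -1.20 to -0.36, adjusted p = 0.043). The difference between the times was 0.42 (95% interval 0.01 to 0.84, adjusted p = 0.359). The 24 h call was lost without the second Control array or either 24 h array (adjusted p = 0.0567, 0.0713 and 0.0675), and the 48 h call without any 1 of the 6 arrays (adjusted p 0.0614 to 0.167). The 48 h call was also lost with quantile normalization (-0.69, adjusted p = 0.0617), and both calls were lost without a filter on dim probes (adjusted p = 0.0609 and 0.154).

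Itgav, the αv chain that is the common partner of β1, β3 and β5, was called on neither of its probes. Probe A_51_P382484 read 1.38 and 1.62 in Control, 1.17 and 1.42 at 24 h and 1.24 and 1.11 at 48 h. Probe A_55_P2039771 read 1.62 and 1.91, then 1.60 and 1.97, then 1.65 and 1.47. The 24 h arrays overlapped with Control on both probes, and only the first probe had both 48 h arrays below Control. The differences were -0.20 and 0.02 at 24 h (95% intervals -0.59 to 0.18 and -0.45 to 0.49, adjusted p = 0.431 and 0.963). At 48 h they were -0.32 and -0.20 (95% intervals -0.71 to 0.06 and -0.67 to 0.27, adjusted p = 0.232 and 0.529). These intervals leave out a 2-fold change in either direction.

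Itgb1, the β1 chain shared by the receptors with α4, α5, α8, α9 and αv, was slightly higher on the stimulated arrays without being called. Probe A_52_P351816 read 1.38 and 1.58 in Control, 1.70 and 1.98 at 24 h and 1.64 and 1.67 at 48 h. Probe A_66_P113059, whose bases lie on both sides of an intron (chr8:131250081-131255976 on mm9), read 3.08 and 3.28, then 3.42 and 3.85, then 3.32 and 3.57. On both probes every stimulated array was above both Control arrays. Separation from Control in either direction was seen for 59.2% of all tested probes at 24 h and 58.1% at 48 h. The differences were 0.36 and 0.46 at 24 h (95% intervals -0.01 to 0.73 and -0.03 to 0.94, adjusted p = 0.176 and 0.184) and 0.17 and 0.27 at 48 h (adjusted p = 0.495 and 0.417).

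Itga5, the α chain of the fibronectin receptor α5β1, rose at 24 h. Its probe A_52_P364140 (chr15:103175022-103175081 on mm9) read 1.43 and 1.73 in Control, 2.35 and 2.85 at 24 h, and 2.25 and 2.45 at 48 h. Every stimulated array was above both Control arrays, and the stimulated groups overlapped each other. The increase was 2.02-fold at 24 h (log2 difference 1.02, 95% interval 0.47 to 1.56, adjusted p = 0.0421). At 48 h the difference was 0.77 (95% interval 0.22 to 1.31, adjusted p = 0.0822), and the times differed by -0.25 (95% interval -0.79 to 0.30, adjusted p = 0.656). The 24 h call was lost without any 1 of the 6 arrays (adjusted p 0.0565 to 0.15) and with arrays centred on their median (0.73, adjusted p = 0.111).

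Cd44 was read by 4 probes, which differed in what they showed. The files list 3 RefSeq transcripts for A_55_P2166488, and 4 for each of the others, where these lists end, out of 6 coding Cd44 transcripts in the RefSeq table. Probe A_55_P2166488 read -2.69 and -2.98 in Control, -2.13 and -1.25 at 24 h, and -2.72 and -2.40 at 48 h. Only its 24 h arrays stood clear of Control (1.15, 95% interval 0.35 to 1.95, adjusted p = 0.0753), and at 48 h the groups overlapped (0.28, adjusted p = 0.619).

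Probe A_55_P2166486, inside the same transcript, read -3.17 and -3.43 in Control, -2.57 and -2.51 at 24 h and -2.99 and -2.87 at 48 h. The groups did not overlap, with 24 h the highest. It rose at 24 h (1.69-fold, log2 difference 0.76, 95% interval 0.42 to 1.10, adjusted p = 0.0276) and differed by 0.37 at 48 h (95% interval 0.02 to 0.71, adjusted p = 0.149). The call was lost without any 1 of the 6 arrays (adjusted p 0.0527 to 0.113), and the difference was 0.29 with normexp correction (adjusted p = 0.105).

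The remaining Cd44 probes lie toward the end of the transcript, from bases 2614 and 5494. Probe A_55_P2166501 read 3.87 and 3.81 in Control, 4.23 and 4.44 at 24 h and 4.16 and 4.21 at 48 h, with every stimulated array above Control (0.50 and 0.34, adjusted p = 0.0607 and 0.142). Probe A_55_P2064043 read 4.55 and 4.62, then 4.55 and 4.80, then 4.95 and 4.82. Its 24 h arrays overlapped with Control, and the differences were 0.09 at 24 h (95% interval -0.26 to 0.44, adjusted p = 0.718) and 0.30 at 48 h (95% interval -0.05 to 0.65, adjusted p = 0.222). Differences between the probes themselves were not tested.

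The α chains that bind the stretch beside the RGD motif were not measured above background. Itga9 read between -5.71 and -4.29 over the 6 arrays, and Itga8, the RGD-binding partner of β1, between -7.02 and -6.20, with neither well above background on any array. Of the 2 Itga4 probes, A_55_P2040026 was well above background on no array. The other, A_66_P140103, was well above background on the first 24 h array only, where it read -4.03. No fold is given for these genes, and low expression below the reach of the probes cannot be told from absence.

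**Figure D3:**
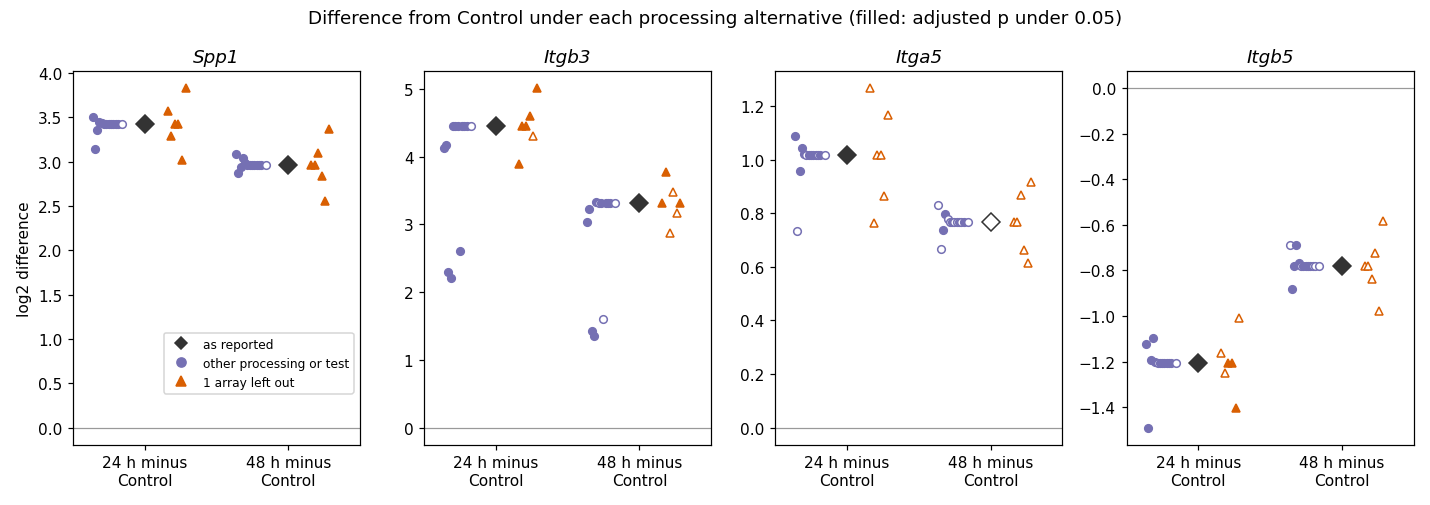
Log2 difference from Control (vertical axis, own scale in each panel) of Spp1, Itgb3 (A_52_P553890), Itga5 and Itgb5 at 24 h and 48 h as reported (diamonds), under other processing or tests (circles) and with 1 array left out (triangles); filled symbols have an adjusted p under 0.05. Spp1 stays filled except for the methods' t-test, while all Itga5 triangles and all Itgb5 triangles at 48 h are open.

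The other genes of the pathway were read in lists, each gene by its brightest probe. The list counts stand beside a called share over all tested probes of 12.7% at 24 h and 11.6% at 48 h, and no list was tested as a set. Of the enzymes that cut, crosslink, phosphorylate or dephosphorylate osteopontin, 6 of 11 were tested, 1 rose at 24 h and 2 at 48 h, and 0 fell (median 0.15 and 0.25). The one that rose at both times was Acp5, the tartrate-resistant acid phosphatase of osteoclasts, which removes phosphate from osteopontin. It read -2.97 and -2.25 in Control, -0.12 and 0.14 at 24 h and -0.43 and 0.19 at 48 h, with no overlap between Control and stimulated arrays (2.62 and 2.49, adjusted p = 0.0112 and 0.0131). The calls were lost without 1 of the 6 arrays at 24 h and 2 at 48 h. Mmp3, a matrix metalloproteinase that cleaves osteopontin, was named after its values were seen and rose at 48 h by 2.18 (adjusted p = 0.0442), a call lost without 5 of the 6 arrays.

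Of the other members of the SIBLING family to which osteopontin belongs, the bone and tooth matrix genes Dspp and Mepe were tested and 0 were called at either time (limma, adjusted p 0.604 to 0.995). Ibsp and Dmp1 were well above background on no array. Of the further integrin chains, Itgb8, another partner of αv, rose at 24 h by 1.09 (adjusted p = 0.0082) and differed by 0.36 at 48 h (adjusted p = 0.11). Itgb7, a partner of α4, differed by -0.61 and 0.57 (adjusted p = 0.136 and 0.164), and Itgb2, the leukocyte β chain, by -0.03 and -0.40 (adjusted p = 0.882 and 0.0764). The Itgb8 call was lost without 2 of the 6 arrays.

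Of the list of other ligands of the same receptors, 20 genes were tested. The list includes Has1, Has2 and Has3, which are enzymes that make hyaluronan and not ligands. At 24 h 4 rose, with Has2 among them, and 4 fell. At 48 h 3 rose and 4 fell, with medians of -0.09 at both times. Of all tested probes, 12.7% were called at 24 h and 11.6% at 48 h. Tnc, the matrix protein tenascin-C bound by α9β1 and αv integrins, read -0.80 and 0.02 in Control, 2.07 and 2.93 at 24 h and 1.51 and 2.30 at 48 h. It rose by 2.89 and 2.30 (adjusted p = 0.0195 and 0.0353). Tgfb1, whose latent form is bound by αv integrins, rose by 1.53 and 1.73 (adjusted p = 0.00597 and 0.00403), and Nov, a matricellular protein, by 1.53 and 1.74 (adjusted p = 0.00894 and 0.00641). Vcam1, the cell-surface ligand of α4β1, fell by 2.02 and 1.34 (adjusted p = 0.0116 and 0.0323). The Tgfb1 calls held without any 1 array, and the Nov call was lost without 1 array at 24 h. The Tnc call was lost without 3 of the 6 arrays at 24 h and 4 at 48 h, and the Vcam1 call without 4 and 5.

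Of 24 tested adaptors and kinases on integrin tails and CD44, 2 rose and 3 fell at each time (median -0.07 and -0.04). The called share of all tested probes was 12.7% at 24 h and 11.6% at 48 h. Parvb, a parvin of the complex that links integrins to actin, rose by 0.89 and 0.69, and Fyn, a Src-family kinase, by 0.95 and 0.88. Bcar1, the adaptor p130Cas, fell by 0.53 and 0.49, and Rdx, the CD44-binding protein radixin, by 0.63 and 0.62. Their adjusted p lay between 0.012 and 0.0468. The Bcar1 and Rdx calls were lost at both times without any 1 of the 6 arrays, and the Fyn and Parvb calls without 4 of the 6 at 24 h and without any 1 at 48 h.

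Of 14 tested transcription factors known to act on the Spp1 promoter, 6 rose and 1 fell at 24 h and 4 rose and 1 fell at 48 h (median 0.45 and 0.10). The called share of all tested probes was 12.7% at 24 h and 11.6% at 48 h. Fos, a subunit of AP-1, read -3.77 and -4.08 in Control, -1.30 and -0.68 at 24 h and -2.21 and -1.43 at 48 h, above Control on every stimulated array (2.93 and 2.10, adjusted p = 0.00971 and 0.0228). Junb, another AP-1 subunit, rose by 2.32 and 1.67 (adjusted p = 0.00493 and 0.0104). Mitf, the factor of melanocytes and osteoclasts, rose by 1.63 and 1.05 (adjusted p = 0.00429 and 0.0116), and Vdr, the vitamin D receptor, fell by 1.47 and 1.29 (adjusted p = 0.0139 and 0.0208). At 24 h the Junb and Mitf calls held without any 1 array, whereas those of Fos and Vdr were lost without 2 of the 6. At 48 h the Junb and Mitf calls were lost without 2 of the 6 arrays, that of Fos without 3 and that of Vdr without 4.

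The stretch before the Spp1 start is shown because the listed factors are known for acting on the Spp1 promoter. The list was set by gene name and not from this sequence. It is taken from RefSeq for GRCm38.p6, where the start is base 104435111 of chromosome 5, and covers chr5:104434861-104435110 on the plus strand, with the RUNX letters AACCACA and the ETS letters AGGAAG in capitals on either strand.
Spp1 promoter: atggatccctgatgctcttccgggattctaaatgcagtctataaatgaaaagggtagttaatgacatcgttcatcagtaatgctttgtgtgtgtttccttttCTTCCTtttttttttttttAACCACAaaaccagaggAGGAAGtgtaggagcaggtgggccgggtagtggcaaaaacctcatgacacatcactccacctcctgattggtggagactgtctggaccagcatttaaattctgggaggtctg

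In the 300 bases around this start, AACCACA was found once, at -129 from the start, and AGGAAG at -148 and -112, without overlap. Of 32851 promoter windows of the same length, 5.27% held AACCACA and 35.4% held AGGAAG. The letters TGANTCA of AP-1, CATGTG of MITF and ACGTG of HIF were not in this window, and were in 7.81%, 14.2% and 19.6% of the windows. RefSeq has a second start for Spp1 downstream, which was not searched. A match describes letters and not binding.

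The genes whose pattern over the 6 arrays was nearest to that of Spp1, among 16293 probes, were Angptl4, Chd7, Bcl3, Pdpn and Acp5 by its other probe. The measure was the Euclidean distance between log2 values set relative to each probe's own Control mean, which ranged from 0.41 for Angptl4 to 0.51 for Acp5. Angptl4, a secreted inhibitor of lipoprotein lipase, read 3.53 and 4.32 in Control, 7.39 and 7.84 at 24 h and 6.76 and 6.89 at 48 h. As with Spp1, its second Control array was the higher one and its 24 h arrays were above its 48 h arrays. Chd7, a chromatin remodeler, Bcl3, a nuclear partner of NF-κB, and Pdpn, the membrane glycoprotein podoplanin, were also above Control on all 4 stimulated arrays, with differences between 2.84 and 3.55. These genes were picked for their likeness to Spp1, so the likeness is a description.

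**Figure D4:**
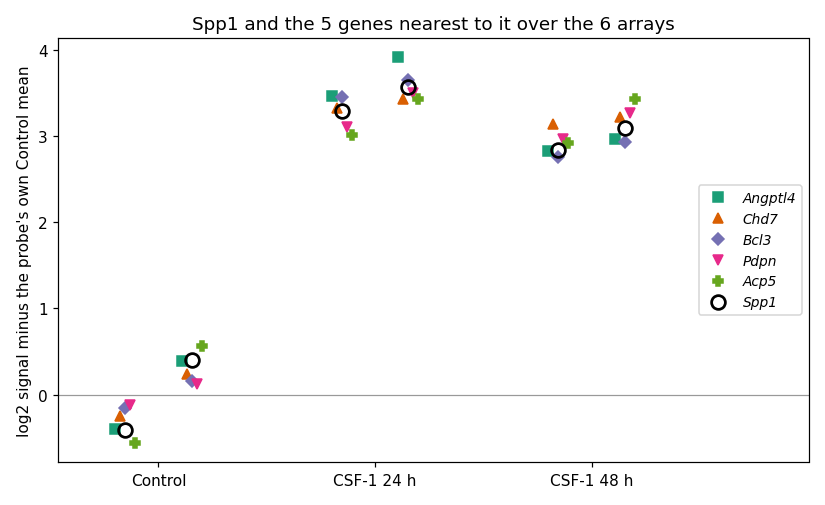
Log2 signal minus the probe's own Control mean (vertical axis) for Spp1 (open circles) and the 5 genes nearest to it, on the 6 arrays grouped as Control, CSF-1 24 h and CSF-1 48 h. All 6 genes lie close to 3 or above on the 24 h arrays, and Acp5 has the widest spread between its Control arrays.

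Since Spp1, Itgb3 and Acp5 are also genes of macrophages and osteoclasts, the markers of those cells were read. Of 15 macrophage and leukocyte markers on the array, 8 were tested, 6 were well above background on all 6 arrays and Lyz2 and Cd163 on none. Mrc1, the mannose receptor, rose by 4.27 and 3.56, Mpeg1, a perforin-like protein of macrophages, by 0.95 and 3.12, and Cd14, a co-receptor for bacterial lipopolysaccharide, by 0.87 and 0.69 (adjusted p 0.00123 to 0.0313), and 0 fell. The called share of all tested probes was 12.7% at 24 h and 11.6% at 48 h. The summed linear level of the list was 40.4 to 45.1 times the 75th percentile in Control, 33.8 to 41.2 at 24 h and 29.4 to 37.9 at 48 h. Heights of different probes are not comparable, so such a sum weighs genes by the brightness of their probes. Between 71.6% and 93.6% of this sum was the Itgam probe, which was not called (-0.43 and -0.65, adjusted p = 0.271 and 0.129). Without Itgam the sum was 2.9 to 3.03 in Control, 7.73 to 7.82 at 24 h and 7.6 to 8.34 at 48 h.

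Of 4 osteoclast markers found (Acp5, Ctsk, Calcr and Oscar), 2 were tested. Acp5 rose at both times, Oscar was not called and Calcr was well above background on no array. The summed level of this list was 0.809 to 0.826 in Control, 1.59 to 1.74 at 24 h and 1.34 to 1.72 at 48 h, and without Acp5 it was 0.599 to 0.698, 0.639 to 0.672 and 0.577 to 0.596. Of the 8 mesenchymal markers, all tested, 2 rose and 3 fell at 24 h, and 1 rose and 3 fell at 48 h. Among all tested probes, 12.7% were called at 24 h and 11.6% at 48 h. The collagens Col1a1 and Col1a2 fell by 0.88 and 1.44 at 24 h and by 1.19 and 1.23 at 48 h. Pdgfrb, a growth factor receptor of fibroblasts and pericytes, fell by 1.91 and 1.12, and Dcn, the proteoglycan decorin, rose by 2.08 and 2.78. The summed mesenchymal level was 662 to 673 in Control, 443 to 449 at 24 h and 423 to 428 at 48 h. Of 4 tested endothelial markers, Cdh5, the cadherin of endothelial junctions, read 14.6-fold higher at 24 h and 15.7-fold higher at 48 h against dim Control signals. Like Itgb3, Cdh5 passed the filter through the stimulated groups alone, so its being tested is tied to its difference. Its adjusted p (limma, 0.00371 and 0.00285) belong to fitted differences that use dim Control values. Pecam1, Kdr and Tek were not called. The summed endothelial level was 18.7 to 25.4 in Control, 20.5 to 23.9 at 24 h and 18.7 to 21.5 at 48 h. Bright probes weigh most in these sums, so a rise of a gene as dim as Cdh5 in Control can leave them little changed. The part of these genes in the Spp1 and integrin results was not tested.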

How the data were processed

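The authors scanned the arrays and quantified spots with Agilent Feature Extraction (11.0.1 per the submitters' processing notes, 11.0.1.1 per the file headers). They deposited, per spot, the background-subtracted, detrended signal, a linear intensity not normalized between arrays, with mean and local background intensities and flags. They also deposited log2 values for part of the probes, of unstated scaling; after removing a constant for each array, 99.8% of differences between arrays lay within 0.05 of those used here. Probe positions are those of the files on mm9.

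Outlier spots were left out (303 probes lost), repeated spots were averaged and log2 signals were set relative to each array's 75th percentile. Probes were kept if some group had them well above background on each of its 2 arrays, and were fitted singly with limma 3.58.1 in R 4.3.3 (lmFit, eBayes, 2-sided) over all 6 arrays, with Benjamini-Hochberg adjustment over 34807 probes. Motifs were searched with Python 3.11.15 and biopython 1.88. Where Control was dim, folds use the array's lowest signal well above background, or the probe's own signal where that was higher. They are not strict lower limits, and the adjusted p belongs to the fitted difference. With 2 arrays a group, an exact permutation test cannot go below p = 0.333, and the number of arrays limits precision. The procedure was tested on simulated data. The members and lists were chosen with earlier results of these data known. Besides all members, the genes named are those of each pathway list called at both times (at most 4 by size), every tested gene of pathway lists with 5 or fewer, and the 5 nearest to Spp1. Marker genes and genes said to be noticed afterwards fall outside this rule. Columns of the authors' own comparisons were not used. Spi1, Adgre1, Ocstamp and Dcstamp were not matched by name. Some markers of the epithelial list are not reported here.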

Additional observations from a re-analysis of the deposited data

How the results depend on the processing

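The increase of Spp1 kept its direction and its call at both times under quantile normalization, median centring, normexp, the authors' log2 values, other probe filters and summaries, an intensity trend, fewer arrays in the fit and the replicate block, between 3.14 and 3.50 at 24 h and between 2.87 and 3.08 at 48 h. The methods state a Student t-test for the study in general and, for the array comparisons, name only the software. With that t-test, adjusted, the differences of 3.43 and 2.97 were not called. That test called 0 probes at either time and 0 members, and at an unadjusted p under 0.05 with 2-fold it called 1897, 1564 and, between the times, 378 probes, with 3 members at 24 h. An unadjusted p under 0.05 with 2-fold in limma gave 2726, 2177 and 857 probes, against 4412, 4049 and 0 at the adjusted p. Without a filter the calls were 1111 and 713 (2 and 1 members). With only the groups compared there were 2337 at 48 h, and 3 members at 24 h. An intensity trend gave 7219 at 48 h (5 members) and 247 between the times. Between the times, normexp gave 249 with the percentile shift and 352 with quantile normalization, and the filter on all 6 arrays gave 6, with 0 members each. Against Control at 48 h, normexp with quantile normalization called 5 members. With 1 array left out, calls ranged from 873 to 3045 at 24 h and from 955 to 2337 at 48 h, with 1 to 3 and 1 to 2 members and 0 between the times. Median centring moved every difference by -0.28 at 24 h and by -0.10 at 48 h. It gave 3 members at 24 h and split the 24 h calls into 1591 higher and 4749 lower, against 2649 and 1763. For normexp with the percentile shift the 24 h split was 2786 and 2996 and the 48 h split 2347 and 3726, against 1956 and 2093. For quantile normalization the 24 h split was 1834 and 1836. No result named in the report reversed while called, and the causes of these moves were not tested.

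The replicate numbers are shared by the groups, but no label says that a number marks an experiment. Differences between replicates 1 and 2 correlated across probes between groups at 0.165 to 0.249, over 2 numbers only. With the replicate block, Spp1 differed by 3.43 and 2.97 (adjusted p = 0.00584 and 0.00736), 4652 and 4480 probes were called, and 5 and 3 members. At 48 h the block moved Itga5 to an adjusted p of 0.0363 and Itgb5 to 0.0524. Slide could not be separated from the first 24 h array, which was alone on its slide, so that block equals leaving the array out. List counts ranged from 0 under the methods' t-test to 12 of the ligand list at 48 h.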

Other observations

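Has2, which makes the hyaluronan bound by CD44 and is already counted in the ligand list, was noticed after its values were seen. It read -0.03 and -0.22 in Control, 1.99 and 2.74 at 24 h and 0.99 and 2.01 at 48 h, above Control on all 4 stimulated arrays. It rose by 2.49 at 24 h (limma, adjusted p = 0.0215) and differed by 1.63 at 48 h (adjusted p = 0.061), and the 24 h call was lost without 4 of the 6 arrays. Runx1, a RUNX family transcription factor that was also noticed afterwards, rose by 1.07 at 24 h (adjusted p = 0.0251), a call lost without 4 of the 6 arrays, and differed by 0.57 at 48 h (adjusted p = 0.112).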
